A study of Homo sapiens with 2 samples.

Results

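The ubiquitin-specific proteases (USPs) are 45 genes of 19775 that the arrays name with at least 1 probe set. They were chosen by symbol: USP followed by digits, with or without a final letter, without USP18, USP41, hyphenated genes and pseudogenes. No intensity enters that rule, but the family was picked with results of these arrays known, so its values are given as a description. The 45 genes hold 130 probe sets of the 41091 that are paired with 1 gene. RefSeq lists 50 protein-coding genes with such a symbol, and USP6, USP10, USP15, USP32 and USP50 were not analysed here, USP15 because its 4 probe sets are paired with a second gene.

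RNA was measured on 2 Affymetrix arrays. The cells of 1 array had been transfected with a SOX17 expression plasmid, and those of the other with an empty vector, both for 12 h. Both came from KYSE170-luc, an esophageal squamous carcinoma line that carries luciferase. The share of cells that took up a plasmid is not given in the sources used here. With 1 array a group there is no replicate, no p-value and no spread between cultures, and each difference below is one between these 2 arrays.

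USPs are the largest family of deubiquitinases, cysteine proteases that cut ubiquitin from proteins and so reverse the work of ubiquitin ligases. Depending on the substrate this spares a protein from the proteasome, edits a histone mark, or ends a signal at a receptor or a DNA lesion. In tumours they are studied for their hold on p53, cyclins, MYC and growth factor receptors.

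Each gene stands by its brightest probe set, that of highest mean log2 intensity over both arrays. It counts as measured when that probe set lies at or above an intensity of 95, the floor, on both arrays. By this rule 37 of the 45 USP genes were measured, of 10034 measured genes in all. Ratios are SOX17 over empty vector, on the log2 scale, so values below 0 mean lower on the SOX17 array. The error of 1 ratio was taken from the probe sets of the same gene. Its SD was 0.30 over 4574 genes, and 0.37, 0.32 and 0.26 in the lowest, middle and highest tertile of level. This SD holds error within these arrays only.

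The arrays had the same mean of 500.1 without the lowest and highest 2% of values, and 40.4% of probe sets on the SOX17 array and 39.6% on the empty vector array reached the floor. SOX17 itself read 83.8 and 6.5 with its 2 probe sets on the SOX17 array, against 4.5 and 19.1 on the empty vector array. All 4 values lie under the floor, so they leave the labels unchecked. The epithelial genes KRT14, KRT5, DSG3, SFN and EPCAM were all measured. Of other cell types, 1 of 4 leukocyte genes, 1 of 5 fibroblast genes and 0 of 3 endothelial genes were. The leukocyte gene was CD79A, close to the floor at 96.9 on the SOX17 array and 112 on the empty vector array. The fibroblast gene was COL1A1, at 845.1 on the SOX17 array and 780.2 on the empty vector array. It was brighter than KRT5, at 273 on the SOX17 array and 247.5 on the empty vector array. KRT6A and TP63 were not analysed here. All 24 probe sets of the spiked poly-A transcripts read higher on the SOX17 array (median log2 ratio 0.57). For ACTB the 3′ signal was 10.4 times the 5′ signal on the SOX17 array and 11.6 times on the empty vector array, and for GAPDH 1.18 times on the SOX17 array and 1.16 times on the empty vector array. The part of these features in the USP values was not tested.

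Most measured USP genes read somewhat lower on the SOX17 array, and few of them by much. Of the 37 measured, 26 had a log2 ratio below 0 and 11 above, whereas 45.4% of all measured genes lay below 0 and 54.6% above. Their median log2 ratio was -0.12, against 0.03 over all measured genes. The lower and upper quartiles of the USP ratios were -0.35 and 0.05, and those of all genes -0.17 and 0.21. At 1.5-fold, 2 USP genes were lower (5.41%), beside 3.19% of all measured genes, and 0 were higher, beside 3.78%. At 2-fold, 0 USP genes were lower, beside 0.329% of all genes, and 0 were higher, beside 0.419%. With so few genes past 1.5-fold, that share cannot be told from the background. In bulk RNA, fewer cells with a transcript and less of it per cell cannot be told apart.

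**Figure D1:**
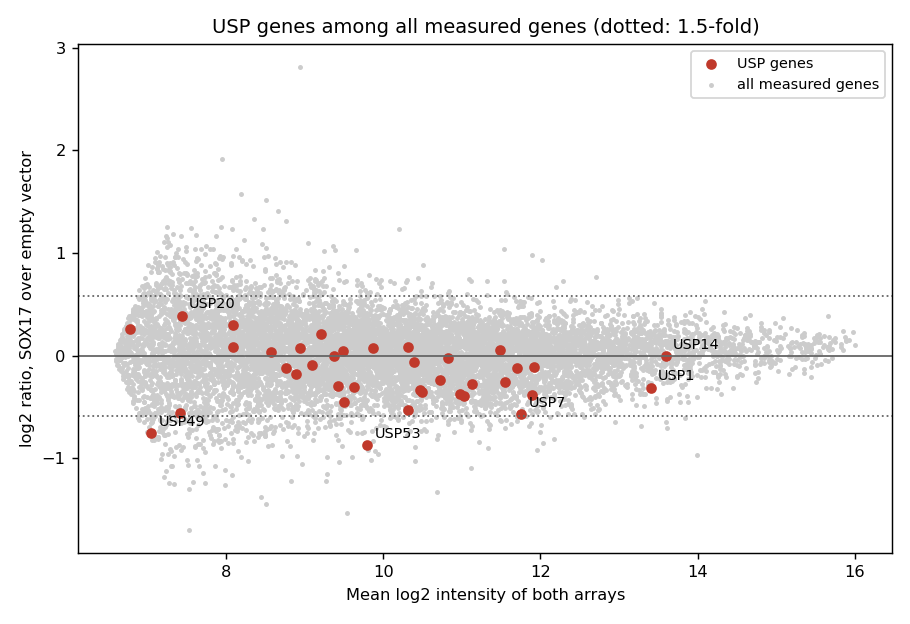
log2 ratio, SOX17 over empty vector (vertical) against the mean log2 intensity of both arrays (horizontal), for the 37 measured USP genes in red and all 10034 measured genes in grey, with 1.5-fold as dotted lines. USP53 and USP49 lie under the lower line and no USP gene lies above the upper one.

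Level bears on how firmly each ratio can be read. USP14, the deubiquitinase of the proteasome's regulatory particle, was the brightest USP probe set, with an intensity of 12333 on the SOX17 array and 12385.6 on the empty vector array. USP1, which removes ubiquitin from PCNA and FANCD2 in DNA repair, read 9727.4 on the SOX17 array and 12060.3 on the empty vector array. USP33, a protease of membrane receptors, read 3705.6 and USP3, a histone H2A deubiquitinase, 3341.4 on the SOX17 array, against 4009.6 and 4350.6 on the empty vector array. Of these bright genes USP14 was level between the arrays, and the other 3 were lower on the SOX17 array. At the dim end USP5, which takes apart free ubiquitin chains, read 120.6 on the SOX17 array and 100.8 on the empty vector array, close to the floor. Intensities of different probe sets are not on 1 scale of RNA amount, so this order describes brightness only.

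**Figure D2:**
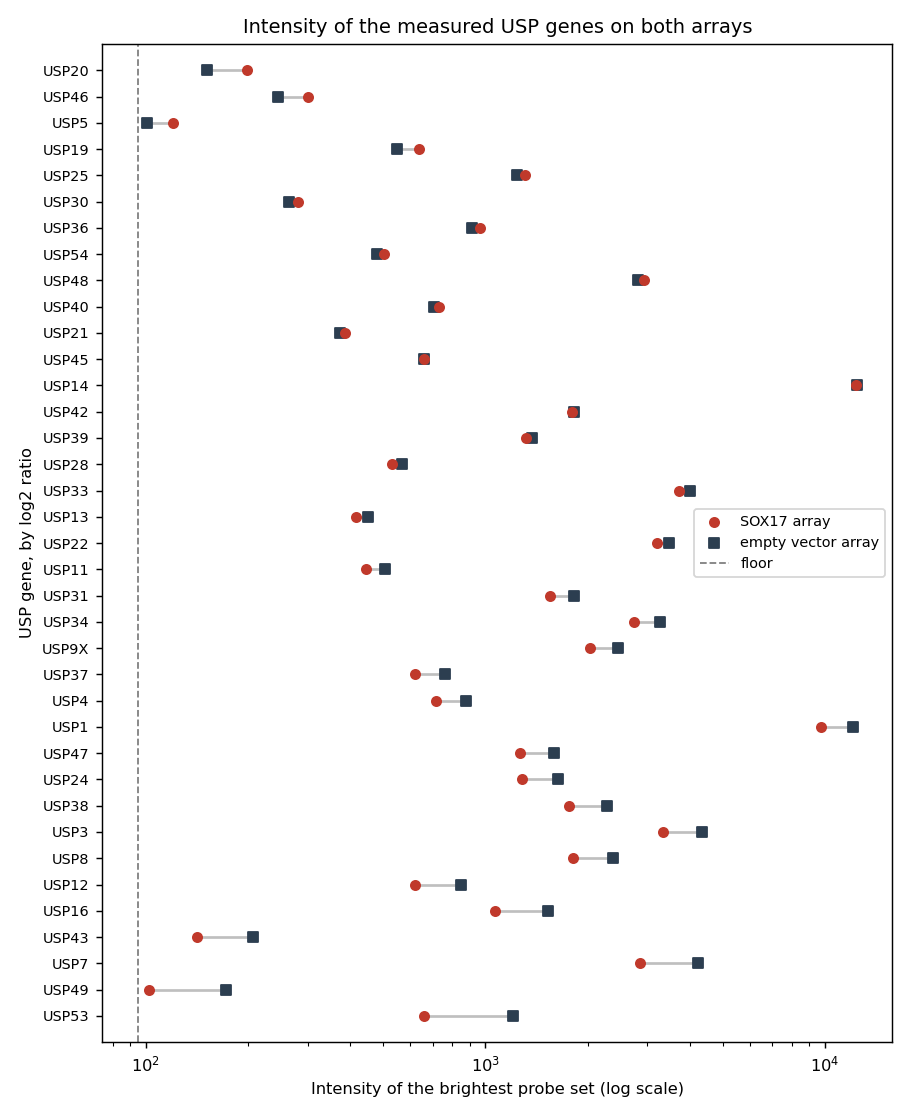
Intensity of the brightest probe set of each of the 37 measured USP genes (log axis) on the SOX17 array (red circles) and the empty vector array (dark squares), ordered by log2 ratio from USP20 at the top to USP53 at the bottom. The circle lies left of the square in 26 genes, and the dashed line is the floor of 95.

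USP53 had the lowest ratio among the 37 measured USP genes. It belongs to the family by its fold, is found at cell junctions, and is mutated in a form of inherited cholestasis. Its brightest probe set read 660.4 on the SOX17 array and 1204.7 on the empty vector array, a log2 ratio of -0.87 (1.82-fold lower). Its second probe set read 448.2 on the SOX17 array and 600.9 on the empty vector array (-0.42). The third read 228.7 on the SOX17 array and 214.3 on the empty vector array (0.09). Brighter probe sets of USP53 were thus lower on the SOX17 array and the dimmest measured one was level, with a mean of -0.40 over the 3.

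USP49, a histone H2B deubiquitinase linked to splicing, was the other gene past 1.5-fold, and its value rests on dim probe sets. The one that represents it read 102.3 on the SOX17 array and 172.4 on the empty vector array (-0.75). The other measured one of its 7 read 148.3 on the SOX17 array and 103.2 on the empty vector array (0.52). The 2 probe sets point opposite ways, and their mean is -0.11.

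USP7 lay just short of 1.5-fold. It deubiquitinates both MDM2 and p53 and is the best studied member in the p53 pathway. Its brightest probe set read 2846.1 on the SOX17 array and 4217.9 on the empty vector array (-0.57, 1.48-fold lower). The other measured one read 2276.1 on the SOX17 array and 2992.8 on the empty vector array (-0.39). Both bright probe sets of USP7 were lower on the SOX17 array. USP53, USP49 and USP7 are the 3 USP genes (8.11%) lower by over 2 SD of 1 ratio at their level, beside 2.21% of all measured genes. 0 USP genes were higher by over 2 SD, beside 2.32%. With 0.35, the SD from probe sets of USP genes alone, USP7 would lie within 2 SD of 0. With so few genes past 2 SD, that share too cannot be told from the background.

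Above 0, USP20 had the highest ratio. It is a receptor deubiquitinase related to USP33 and read 198.5 on the SOX17 array and 151.5 on the empty vector array (0.39), on 1 probe set. USP46, a WDR48-dependent protease, read 301.4 on the SOX17 array and 245 on the empty vector array (0.30), with -0.17 on its other measured probe set. Both sit in the lowest tertile of level and lie within 2 SD of 0.

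Probe sets of a gene give a check that the brightest one alone does not. Of all 82 measured USP probe sets 52 (63.4%) were below 0, beside 48.8% of the measured probe sets of all genes. This is a smaller contrast than that of the brightest probe sets. Of the 28 USP genes with at least 2 measured probe sets, 12 (42.9%) were below 0 on every one, beside 25.5% of all such genes. On every one above 0 were 2 (7.14%), beside 23.2%. The other 14 had probe sets of opposite sign. Among the 12 USP genes with at least 3 measured probe sets, 3 were below 0 throughout (25%), beside 19.8%, and 1 above (8.33%), beside 13.3%. The SD of 1 ratio from probe sets of the same USP gene was 0.35.

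The 3 genes that were lower on each of at least 3 probe sets were USP16, USP37 and USP47. USP47, a base excision repair protease that acts on polymerase beta, had 4 measured probe sets with log2 ratios of -0.99 to -0.23. USP16, a histone H2A deubiquitinase needed for mitosis, read 1065.1 on the SOX17 array and 1534.4 on the empty vector array (-0.53), and its 3 probe sets ranged from -0.87 to -0.30. USP37, which stabilises cyclin A, read 621 on the SOX17 array and 761.4 on the empty vector array, and its 3 ranged from -0.64 to -0.17. All 10 measured probe sets of these 3 genes were lower on the SOX17 array. USP48, which acts on histone H2A and on NF-kB, was the gene above 0 on each of at least 3. Its 4 measured probe sets ranged from 0.06 to 0.51, and the brightest read 2925.4 on the SOX17 array and 2812.2 on the empty vector array.

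Other USP genes with at least 3 measured probe sets spread around 0. USP31 ranged from -0.28 to 0.32 over 5 and USP34, an axin deubiquitinase of the Wnt pathway, from -0.68 to 0.58 over 4. USP13 ranged from -0.11 to 0.37, USP14 from -0.17 to 0.11, USP21 from -0.42 to 0.18, USP28 from -0.09 to 0.26 and USP36 from -0.35 to 0.08, each over 3. For these genes the sign depends on the probe set read. USP25, a protease of ER quality control and immune signalling with 2 measured probe sets, also spread widely, with 0.08 on the brighter one and -1.16 on the dimmer, which read 204.3 on the SOX17 array and 455 on the empty vector array.

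**Figure D3:**
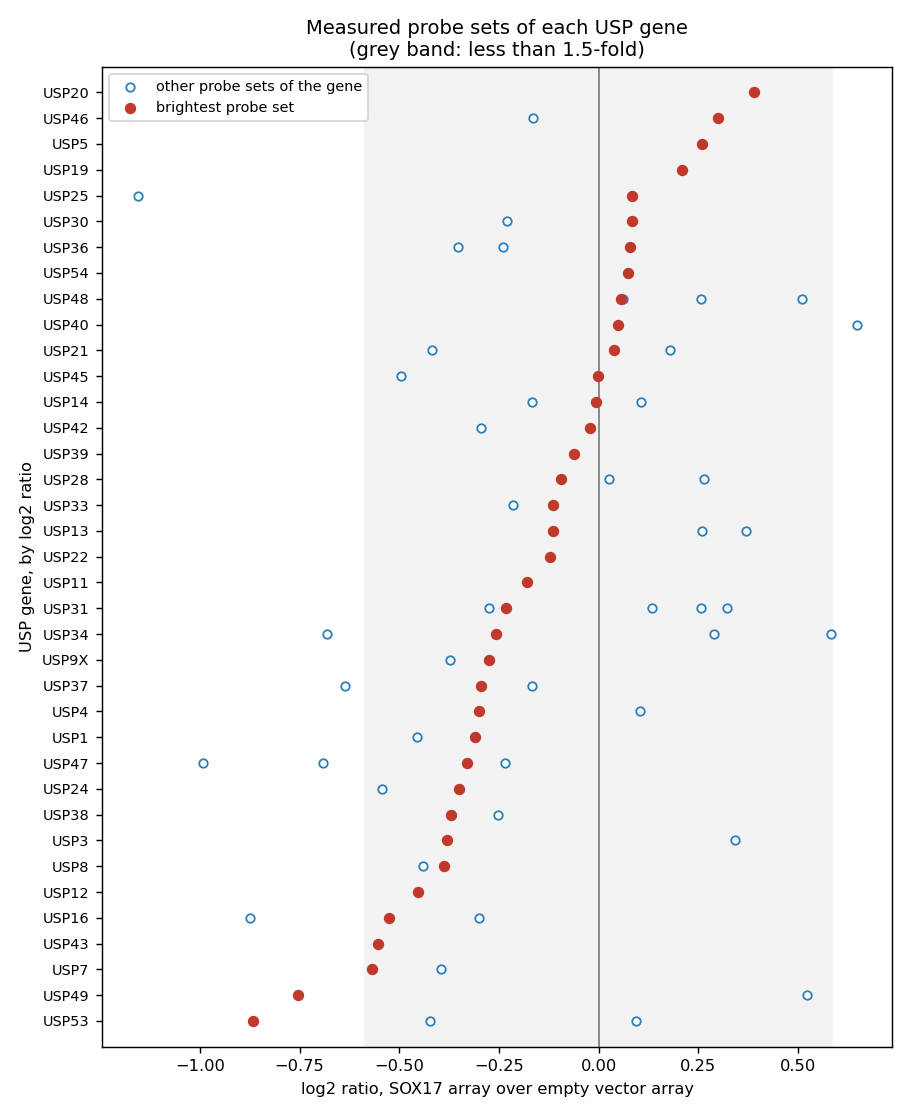
log2 ratios of all measured probe sets of the 37 measured USP genes, with the brightest probe set of each gene filled in red and its other probe sets as open blue circles, and a grey band for less than 1.5-fold. USP16, USP37 and USP47 lie left of 0 on every probe set and USP48 right of it, whereas USP25, USP34 and USP49 spread to both sides.

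Of the measured USP genes 70.3% were below 0, beside 45.4% of all measured genes, and each role group holds few genes. Whether a group's share differs from that of the family was not tested. By role, most USP genes of DNA damage and p53 were on the lower side. This group was USP1, USP7, USP11, USP24, USP28, USP45 and USP47, and 7 of 7 measured members were below 0 on their brightest probe set, with a median log2 ratio of -0.31, but USP45 turned to 0.014 with quantile normalization and 0.0084 with loess, and USP28 to 0.065 with the mean over probe sets. None was past 1.5-fold, and USP45, which acts on the ERCC1 nuclease, read 661.4 on the SOX17 array and 661.5 on the empty vector array, level between them. USP24, a relative of USP9X, read 1280.8 on the SOX17 array and 1631.9 on the empty vector array (-0.35), and -0.54 on its second probe set. USP1 had ratios of -0.31 and -0.46. USP11, a partner of BRCA2, was at -0.18 on 1 probe set. USP28, which stabilises MYC, was at -0.09 on its brightest probe set but had 2 others above 0.

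Of the chromatin and nucleolar USPs, 5 of 7 measured were below 0 (median -0.12), beside 70.3% of measured USP genes and 45.4% of all measured genes. Only USP49 was past 1.5-fold lower, beside 3.19% of all measured genes. USP3 was at -0.38 on its brightest probe set and 0.34 on its other one. USP22, the catalytic subunit of the SAGA deubiquitinase module, was at -0.12. USP42 was at -0.02, USP21 at 0.04 and USP36, the nucleolar USP, at 0.08.

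Among the USPs of receptor, TGF-beta, Wnt and NF-kB signalling, 5 of 8 measured were below 0 (median -0.24) and 0 past 1.5-fold. The share below 0 was 70.3% of measured USP genes and 45.4% of all measured genes. USP9X, a SMAD4 and MCL1 deubiquitinase, read 2036.2 on the SOX17 array and 2462.8 on the empty vector array (-0.27), and -0.37 on its other measured probe set. It has a near-identical copy on the Y chromosome, and whether its probe sets also read that copy was not tested. USP12 was at -0.45 on 1 measured probe set, and USP4, a TGF-beta receptor deubiquitinase, was at -0.30 and 0.10 on its 2. USP34 was at -0.26 on its brightest.

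The USPs of endosomes and organelles were mixed, 3 of 5 measured above 0 (median 0.08), beside 54.6% of all measured genes. USP8, which sorts EGFR at endosomes, read 1818.2 on the SOX17 array and 2380.8 on the empty vector array (-0.39), and its other probe set was at -0.44. USP19, an ER-anchored protease, read 636.7 on the SOX17 array and 550.3 on the empty vector array (0.21), and USP30, a mitochondrial outer membrane brake on mitophagy, 280.3 on the SOX17 array and 264.5 on the empty vector array (0.08). USP33 was at -0.11.

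Of the proteasome and free chain USPs, USP14 was at -0.01, USP13 at -0.11 and USP5 at 0.26, a group median of -0.01. In the cell cycle and splicing group, USP37 was at -0.29 and USP39, a splicing factor of the tri-snRNP that lacks protease activity, at -0.06. In the group of germline or little known USPs, 3 of 5 measured were below 0 (median -0.37), beside 45.4% of all measured genes. Its members USP26 and USP29 were under the floor, so the median is that of USP38, USP40, USP43, USP53 and USP54. USP53 was at -0.87. USP38 read 1766.1 on the SOX17 array and 2284.7 on the empty vector array (-0.37), and USP43 read 141.4 on the SOX17 array and 207.4 on the empty vector array (-0.55), dim and on 1 probe set. USP54 was at 0.07 and USP40 at 0.05.

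**Figure D4:**
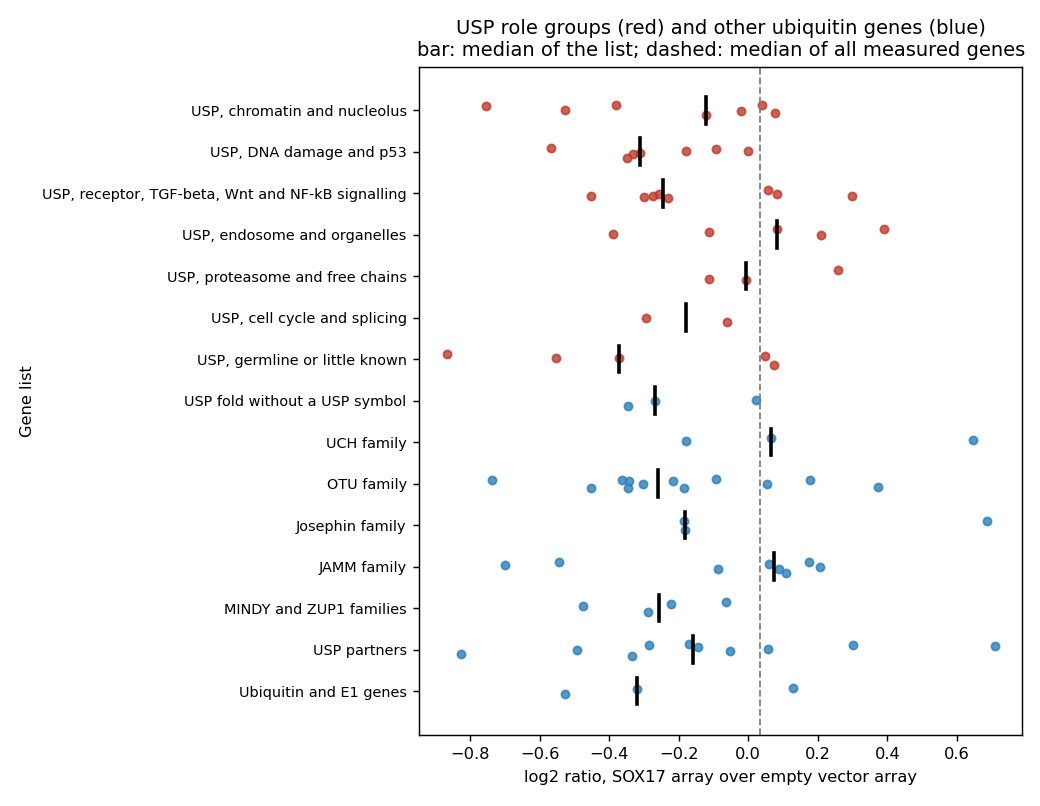
log2 ratios of measured genes by list, with the 7 role groups of USP genes in red and 8 lists of other ubiquitin genes in blue, a black bar at each list's median and a dashed line at 0.03, the median of all measured genes. All 7 points of the DNA damage and p53 group lie at or left of 0, while USP genes of endosomes and organelles lie on both sides.

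The other 8 USP genes lay below the floor on at least 1 array and have no fold. None of the 8 reached 2 times the floor on either array, so 0 had a bound. USP2, a clock-linked protease of cyclin D1, came nearest, reading 109.6 on the SOX17 array and 41.4 on the empty vector array, and its other 3 probe sets read at most 13.5 on the SOX17 array and 92.4 on the empty vector array. USP27X, USP35, USP44, USP51, USP26 and USP29 were under the floor on both arrays, and the Y-linked USP9Y was counted but its level is not given.

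Related USP genes did not share a direction throughout. Of 21 listed pairs of close relatives, 11 had both genes measured, and 5 of these lay on the same side, all below 0. The 5 include USP16 with USP45, and USP45 was level between the arrays (-0.0002). As 26 of the 37 measured USP genes were below 0, this count does not tell relatives from other USP genes. The largest difference was between USP53 and USP54, 0.94 on the log2 scale (SD of the difference 0.49). Next was USP12, at -0.45, against USP46, at 0.30, both served by the activators WDR48 and WDR20. USP7 and USP47 were both lower, at -0.57 and -0.33, as were USP9X and USP24. Of the 11 pairs, 0 differed by over 2 SD of the difference.

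Genes of deubiquitinase folds and families outside the USP symbols also lay mostly below 0. They were listed by family, not by activity on ubiquitin, and include USPL1, PAN2, COPS5, EIF3F and EIF3H. Of 33 measured genes on 6 lists, 21 were below 0, beside 45.4% of all measured genes, with a median log2 ratio of -0.18. At 1.5-fold 2 were higher, beside 3.78% of all measured genes, and 2 lower, beside 3.19%. In the OTU family 9 of 12 were below 0 (median -0.26), led by YOD1, an ER-associated protease, at -0.74, with -0.04 on its other probe set. OTUD6B was at -0.45 and OTUB1, a broad inhibitor of ubiquitin conjugation, at 0.37, with 3 probe sets from -0.15 to 0.89. MYSM1, a histone H2A protease of the JAMM family, read 753.1 on the SOX17 array and 1222.3 on the empty vector array (-0.70), and BRCC3, the K63-specific protease of the BRCA1-A complex, was at -0.55. UCHL1, the neuronal ubiquitin hydrolase, read 696 on the SOX17 array and 444.4 on the empty vector array (0.65). JOSD2 of the Josephin family was at 0.69, on 1 dim probe set, and USPL1, a SUMO protease with a USP fold, at -0.35. All 4 measured MINDY and ZUP1 genes were below 0 on their brightest probe set, but MINDY3 was at 0.81 on its other measured one. In the JAMM family 5 of 8 genes were above 0.

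Of the listed USP partners, 7 of 10 were below 0 on their brightest probe set (median -0.16), beside 45.4% of all measured genes. Several had measured probe sets of opposite sign. WDR48 ranged from -0.29 to 0.74, G3BP1 from -1.04 to 0.20, STAM2 from -0.20 to 0.70 and GMPS from -0.45 to 0.06. ATXN7, which anchors the SAGA module that holds USP22, read 704.4 on the SOX17 array and 1249.7 on the empty vector array (-0.83), and -0.76 on its other probe set. ATXN7L3 of the same module was at -0.49, while ENY2 of that module was at 0.30. WDR20 read 1442.5 on the SOX17 array and 882.1 on the empty vector array (0.71), but -0.18 on its other probe set. Of the ubiquitin and E1 genes 3 were measured. UBB, which encodes ubiquitin, was at 0.13, and the E1 enzymes UBA1 and UBA6 were at -0.32 and -0.53. The 4 measured probe sets of UBA6 ranged from -0.59 to 0.19.

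USP genes are long, a feature the choice by symbol did not use. The median genomic length of the 37 measured was 80.3 kb, against 30.2 kb over all measured genes (GRCh38.p14). Over all measured genes the share below 0 was 35.6% under 20 kb, 46.2% from 20 to 50 kb, 54.2% from 50 to 100 kb and 56.6% at 100 kb or more. Among USP genes it was 2 of 5, 4 of 5, 12 of 16 and 8 of 11 in the same bins. In the last 2 bins the USP shares were 75% of 16 genes and 72.7% of 11, beside 54.2% and 56.6% of all genes. These bins hold few USP genes. The last bin has no upper limit, so lengths within it were not matched. Across the 37 USP genes the log2 ratio and log10 length had a Pearson's r of -0.262 and a Spearman's rho of -0.230. Over 10026 genes r was -0.162 and rho -0.187. These are descriptions across genes of the same 2 arrays, and the part of length in the USP ratios was not tested.

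**Figure D5:**
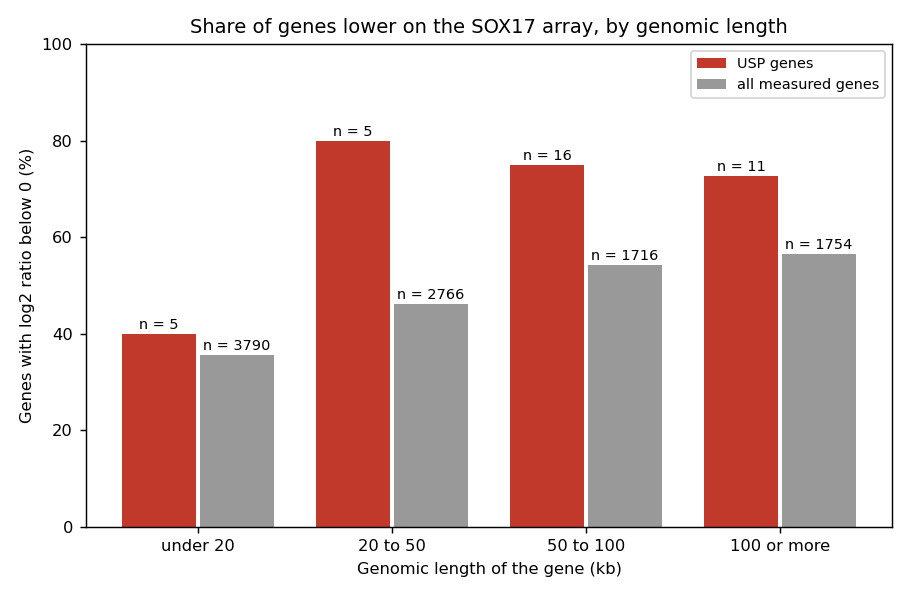
Share of genes with a log2 ratio below 0 (percent, vertical) by genomic length, for the measured USP genes in red and all measured genes in grey, with the number of genes over each bar. The share of all genes goes from 35.6% under 20 kb to 56.6% at 100 kb or more, and USP genes of 50 kb or more stand at 75% and 72.7%.

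Promoter sequence is shown for 3 genes lower on the SOX17 array and for USP46, above 0 on its brightest probe set, from RefSeq (GRCh38.p14), 250 bases before to 50 after a start, 5′ to 3′. Of the 37 measured USP genes, 30 had a window in the table, 42 windows in all. The motifs searched were ACAAT or its reverse complement ATTGT, the core that SOX proteins recognise, and GGGCGG or CCGCCC, the GC box. Both strands were searched, the motifs do not overlap each other, and capitals mark their matches. USP53 has 1 window, and those of USP7, USP1 and USP46 are the ones at the annotated gene start.
USP53 (chr4:119212463-119212762, plus strand): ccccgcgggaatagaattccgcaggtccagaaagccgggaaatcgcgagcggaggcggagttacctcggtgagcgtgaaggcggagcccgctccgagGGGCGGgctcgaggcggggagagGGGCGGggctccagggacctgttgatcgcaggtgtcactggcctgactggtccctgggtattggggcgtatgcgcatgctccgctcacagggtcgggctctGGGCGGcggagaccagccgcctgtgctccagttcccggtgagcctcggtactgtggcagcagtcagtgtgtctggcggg
USP7 (chr16:8963857-8964156, minus strand): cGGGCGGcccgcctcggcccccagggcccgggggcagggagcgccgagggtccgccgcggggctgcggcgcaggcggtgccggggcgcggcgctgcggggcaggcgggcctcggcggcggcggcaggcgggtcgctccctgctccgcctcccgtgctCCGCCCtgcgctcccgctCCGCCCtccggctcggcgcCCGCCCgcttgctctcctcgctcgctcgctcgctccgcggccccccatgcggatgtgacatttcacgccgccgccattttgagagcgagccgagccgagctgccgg
USP1 (chr1:62436145-62436444, plus strand): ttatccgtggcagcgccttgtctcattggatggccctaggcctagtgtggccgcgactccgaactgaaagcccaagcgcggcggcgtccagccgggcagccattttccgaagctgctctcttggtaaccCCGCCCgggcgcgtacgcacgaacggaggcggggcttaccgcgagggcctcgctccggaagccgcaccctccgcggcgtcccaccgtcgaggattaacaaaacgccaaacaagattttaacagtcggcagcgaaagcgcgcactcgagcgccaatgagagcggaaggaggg
USP46 (chr4:52659252-52659551, minus strand): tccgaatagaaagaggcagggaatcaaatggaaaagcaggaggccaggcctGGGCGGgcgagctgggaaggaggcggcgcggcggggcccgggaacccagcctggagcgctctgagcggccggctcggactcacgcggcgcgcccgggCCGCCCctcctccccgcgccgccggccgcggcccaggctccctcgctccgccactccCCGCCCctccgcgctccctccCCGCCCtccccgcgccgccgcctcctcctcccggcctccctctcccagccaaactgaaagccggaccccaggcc

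None of these 4 windows holds ACAAT on either strand, and USP53, USP7, USP1 and USP46 hold 3, 4, 1 and 4 GC boxes. The other window of USP46 holds 3 matches to ACAAT and 0 GC boxes. Of the 42 windows 5 held ACAAT on either strand (11.9%), beside 18.1% of windows of measured genes and 27.4% of all 35116 windows. GGGCGG stood in 30 of the 42 (71.4%), beside 66.8% and 45%. The 4 measured USP genes with ACAAT in a window were USP25, USP30, USP46 and USP54, of which the first 3 have measured probe sets of opposite sign. USP promoter windows had a median GC content of 67.5%, against 64.7% for windows of measured genes. A match describes letters in a window and says nothing of binding.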

How the data were processed

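Total RNA of KYSE170-luc cells, 1 array with SOX17 and 1 with empty vector at 12 h, was extracted with Trizol and labelled as biotinylated cRNA, per the labels' protocols. The deposited table gives 1 linear intensity per probe set, which the authors computed with GCOS (stated in the labels' list of tools, per the submitters' processing notes). Its version, algorithm, settings and detection calls are not given in the sources used here. Values were used as deposited, and the equal trimmed means show that they had been scaled.

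Probe sets were named by GEO's platform annotation, and 0 USP symbols needed an update. The floor was the 60th percentile of both arrays pooled. Every USP gene may be named, with full values for those past 1.5-fold, the 5 brightest, those with at least 3 measured probe sets and pairs, and up to 3 genes of each other list. Full values of other genes, ENY2 and the genes with printed promoters were chosen after their values were seen. The members and lists were chosen with earlier results of these data known. Protein sequence was planned and was not used here. The 8 alternatives were median centring, quantile normalization, loess (span 0.4), no floor or one at percentile 50 or 75, averaging a gene's probe sets, and leaving out _x_at and _s_at probe sets. The scripts were tested on simulated data. Software was matplotlib 3.10.9, statsmodels 0.14.6, scipy 1.17.1, pandas 2.3.3 and numpy 2.4.6 under Python 3.11.15. Precision is limited by the number of arrays.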

Additional observations from a re-analysis of the deposited data

How the results depend on the processing

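The median log2 ratio of the measured USP genes stayed below 0 under all 8 alternatives, between -0.18 and -0.10, and USP genes below 0 made up 61.4% to 77.4% of those measured, against 43.4% to 48.6% of all measured genes. The 2 genes past 1.5-fold lower did not hold throughout: with a floor at percentile 75 there was 1, USP53, and with the mean over probe sets there were 0. With the floor at percentile 75, 7 USP genes were above 0. With no floor, where dim values enter and USP9Y was left out, 6 of 44 USP genes were at least 1.5-fold higher, beside 21.4% of all genes. In that setting 17 USP genes were above 0 and 5 were at least 2-fold higher or lower. No 2-fold share of all genes without a floor is given here. Without _x_at and _s_at probe sets USP34 was at -0.68. Of role group medians, that of endosomes and organelles turned to -0.11 with a floor at percentile 75 and -0.073 with the mean over probe sets, that of proteasome and free chains to 0.17 with the mean, and that of germline or little known USPs to 0.049 with no floor. Of other lists, genes of the USP fold without a USP symbol turned to 0.15 without _x_at and _s_at probe sets, and the Josephin family to 0.25 there and to 0.25 with no floor. Of 280 gene values under alternatives 271 moved by less than the SD of 1 ratio and 9 by that or more. Many of the 271 could not move: a change of floor leaves a gene's ratio as it is, and median centring shifts all genes alike. The count of 271 is thus no measure of stability. All 9 came from averaging probe sets or from leaving out _x_at and _s_at probe sets. In sign, 13 of the 280 values, from 10 genes, differed from the value reported, among them USP45 and USP42 by scaling. Without _x_at and _s_at probe sets USP28 turned to 0.26, USP3 to 0.34 and USP36 to -0.35. With the mean over probe sets USP25 turned to -0.54. The causes were not tested. No paired analysis was possible because each group has 1 array.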
